A study of Mus musculus with 49 samples.

Results

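The TATA-binding protein family was described at the transcript level in single late 2-cell mouse embryos, through its 3 genes Tbp, Tbpl1 and Tbpl2. The genes were taken by their symbol in the GENCODE annotation of GRCm38, and all 3 have a row among the 54838 genes of the count tables. Each sample was 1 embryo of an F1(C57BL/6JxCBA/H) cross, collected 48 h post-hCG. Libraries were made with SMART-Seq +5', a protocol that tells 5'-end reads apart from internal ones, and the values below count the 5' reads. In Trim-Away, an injected antibody marks its target protein, and the ubiquitin ligase TRIM21 then sends the marked protein to the proteasome. TBP LOF embryos (n = 9) received the mouse monoclonal antibody 3G3 against TBP, and their CONTROL embryos (n = 10) received mouse IgG. FOXJ3 LOF embryos (n = 17) received a rabbit polyclonal antibody against FOXJ3, and their CONTROL embryos (n = 13) received rabbit IgG. Embryos of all 4 groups were also injected with mCherry-Trim21 mRNA 4 h after the antibody, so the controls carry the ligase too. Group sizes follow the sample labels, and the study's methods give those of the TBP experiment the other way round. The FOXJ3 embryos form 2 library batches named in the labels. By the study's methods, embryos of both the TBP and the FOXJ3 groups come from 3 or more independent experiments, called rounds here. The sources used here do not say which embryo belongs to which round or whether embryos shared a mother. P-values therefore measure the spread between these embryos.

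TBP binds the TATA box and nucleates the basal machinery of all nuclear RNA polymerases. It works inside different complexes. With TAFs it forms TFIID at RNA polymerase II promoters, with the products of Taf1a to Taf1d it forms SL1 at ribosomal DNA, and with Brf1 or Brf2 and Bdp1 it forms TFIIIB at RNA polymerase III genes. Tbpl1, also called TRF2 or TLF, shares the core domain but does not bind the canonical TATA box, and it is known for its role in male germ cells. Tbpl2, also called TRF3, takes the place of TBP in growing oocytes.

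Tbp (ENSMUSG00000014767.17) lies at chr17:15499888-15528379 on the plus strand, Tbpl1 (ENSMUSG00000071359.13) at chr10:22703879-22731938 on the minus strand, and Tbpl2 (ENSMUSG00000061809.8) at chr2:24071721-24096595 on the minus strand. All 3 are annotated as protein-coding. Because the family is named for a promoter motif, the 250 bases before each RefSeq start are shown (build GRCm38.p6, 5′ to 3′ along the strand of the gene). The windows are chr17:15499638-15499887 for Tbp, chr10:22731448-22731697 for Tbpl1 and chr2:24096596-24096845 for Tbpl2. The Tbpl1 window lies inside the GENCODE span of Tbpl1 given above. The Tbp window overlaps the start of Psmb1, a neighbour on the other strand. Capitals mark a match to TATAAA with at most 1 mismatch within 40 to 20 bases before the start.
Tbp: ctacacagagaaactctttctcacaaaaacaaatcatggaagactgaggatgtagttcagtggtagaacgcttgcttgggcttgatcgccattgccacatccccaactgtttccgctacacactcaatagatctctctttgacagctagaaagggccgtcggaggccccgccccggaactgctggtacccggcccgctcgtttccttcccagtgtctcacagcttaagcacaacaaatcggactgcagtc
Tbpl1: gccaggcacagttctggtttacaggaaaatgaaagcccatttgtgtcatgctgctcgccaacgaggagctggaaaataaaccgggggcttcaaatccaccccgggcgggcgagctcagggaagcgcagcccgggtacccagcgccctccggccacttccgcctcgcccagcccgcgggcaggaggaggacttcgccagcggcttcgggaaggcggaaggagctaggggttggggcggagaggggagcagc
Tbpl2: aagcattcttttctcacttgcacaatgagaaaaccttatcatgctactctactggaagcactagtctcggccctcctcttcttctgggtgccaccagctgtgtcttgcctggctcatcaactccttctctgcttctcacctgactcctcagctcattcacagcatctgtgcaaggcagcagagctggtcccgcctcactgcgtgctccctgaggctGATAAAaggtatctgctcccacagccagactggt
The Tbpl2 window held such a match, GATAAA, with its first base at position -34 from the start. Within the same 40 to 20 bases the Tbp and Tbpl1 sequences held none, and their closest 6 bases there differed from TATAAA at 3 and 4 positions. Near matches farther from the start were not marked. A match of this kind was present in 9.06% of the 32851 RefSeq promoters searched. The exact letters TATAAA, on either strand, were in 0 of the 3 windows and in 12.4% of all promoters. The Tbpl1 window was the richest in GC (65.6%) and in CpG dinucleotides (19). The Tbp window had a GC content of 52% with 11 CpG and the Tbpl2 window one of 52.8% with 3, beside medians of 52.4% and 6 over all promoters. A match describes letters and says nothing of binding.

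Of the 49 embryos, 47 passed the quality filter and enter the values below. CONTROL embryo 7 of the TBP experiment and LOF embryo 7 of FOXJ3 batch 1 had 464300 and 308682 counted reads and were left out. In the passing embryos, counted reads ranged from 1295251 to 4166903 in TBP LOF, from 1160150 to 5434808 in its CONTROL, from 1103569 to 3430110 in FOXJ3 LOF and from 1302207 to 3257323 in its CONTROL. The ERCC spike-in RNA, which came with the lysis buffer of each tube, took 4.29% ± 1.19 (SD, n = 9) of the reads in TBP LOF and 2.76% ± 0.37 (SD, n = 9) in CONTROL. Values of the TBP experiment were scaled to ERCC, as the study did. The median log2 fold change over all genes tested was then -0.70. TMM scaling instead sets the bulk of genes to equal levels, and it turned the sign of Tbpl1 and of 12 of the 35 partner genes described further on. Each library is a whole embryo, and the study collected all embryos at the same cell stage. By this design each library holds the same number of cells. No source used here gives a cell count for each embryo, and RNA per cell was not tested.

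Under ERCC scaling, Tbp transcripts were lower in every TBP LOF embryo than in every CONTROL embryo of the experiment. The share of all features that separate in this way was not counted. In CONTROL embryos 1 to 6 the ERCC-normalised Tbp count was 290, 238, 258, 273, 196 and 368, and in CONTROL embryos 8, 9 and 10 it was 672, 280 and 472. In TBP LOF embryos 1, 2, 5, 6 and 7 it was 48.2, 40.7, 83.3, 117 and 115, and in embryos 8 to 11 it was 151, 6.59, 114 and 17.1. The highest LOF embryo, number 8, lay below the lowest CONTROL embryo, number 5, and LOF embryo 9 stood lowest with 9 reads. The group means were 77.0 ± 50.8 (SD, n = 9) in LOF and 338 ± 149 (SD, n = 9) in CONTROL, a ratio of 0.228. Tbp fell by 2.14 ± 0.37 log2 units (SE; adjusted p = 5.26e-06, edgeR quasi-likelihood test with Benjamini-Hochberg adjustment). Of the 19356 genes and TE families tested, 29.7% were called lower and 1.34% higher. Among the 18447 genes, 2144 had a lower log2 fold change than Tbp.

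The fall was smaller when embryos were scaled to the bulk of their genes. Under TMM scaling the log2 fold change of Tbp was -1.31 ± 0.31 (SE; edgeR adjusted p = 0.00211). In RPM, which scales reads to the gene and TE reads of each library, 8 of 9 LOF embryos were below the lowest CONTROL embryo. How many of all features do so was not counted. Mean Tbp levels were 52.4 ± 35.6 RPM (SD, n = 9) in LOF and 148 ± 49.9 (SD, n = 9) in CONTROL. The mean mCherry-Trim21 level was 1269 RPM in LOF and 809 in CONTROL. With the log2 of the ERCC-normalised mCherry-Trim21 reads in the model, the log2 fold change of Tbp was -2.09 (edgeR adjusted p = 2.20e-06). A model with the RPM level was not run. Trim-Away acts on the protein, so the Tbp transcript is no check of the depletion.

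**Figure D1:**
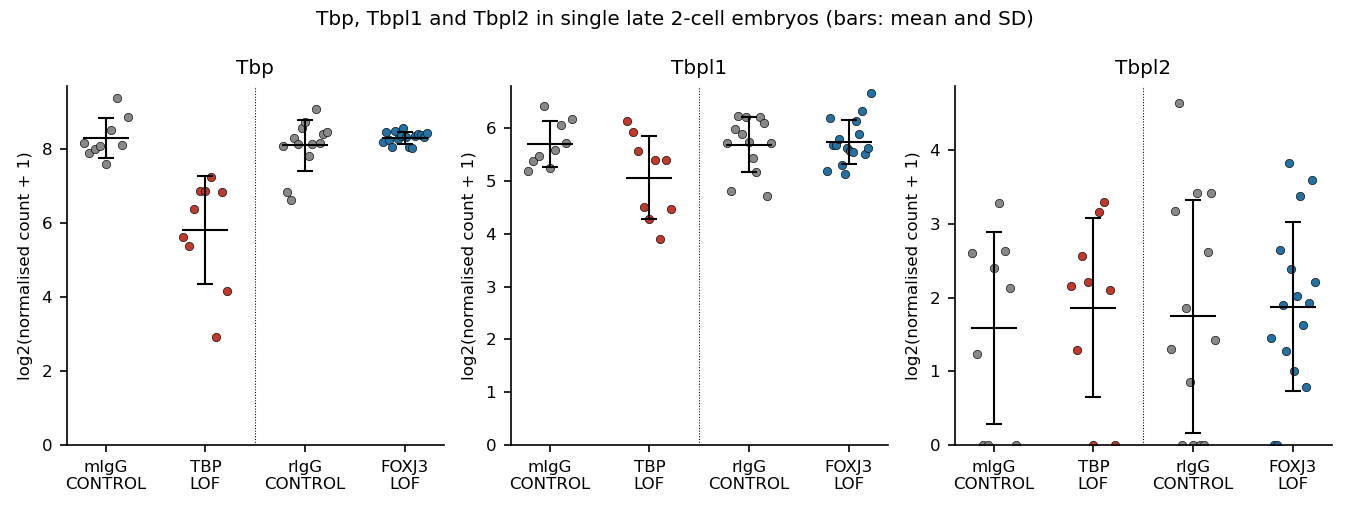
Normalised counts of Tbp, Tbpl1 and Tbpl2 as log2(count + 1), with 1 point per embryo, in the 4 groups. The horizontal bar is the mean of the plotted values and the whiskers are the SD. The TBP experiment is scaled to ERCC and the FOXJ3 experiment by TMM, so levels compare only on the same side of the dotted line. The 9 TBP LOF embryos lie below all 9 mIgG CONTROL embryos for Tbp and overlap them for Tbpl1 and Tbpl2. How many of all features separate like Tbp was not counted.

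Tbpl1, the paralog without TATA binding, was not called in TBP LOF. Its ERCC-normalised count was 35.4, 40.6, 43.3, 84.8, 37.1 and 46.9 in CONTROL embryos 1 to 6 and 65.3, 51.9 and 71.2 in embryos 8, 9 and 10. In TBP LOF it was 68.9, 59.5, 46.5, 21.7 and 18.4 in embryos 1, 2, 5, 6 and 7, and 41.3, 13.9, 41.0 and 21.2 in embryos 8 to 11. The groups overlapped, with 4 LOF embryos below the lowest CONTROL embryo. Mean Tbpl1 counts were 37.0 ± 19.4 (SD, n = 9) in LOF and 52.9 ± 17.1 (SD, n = 9) in CONTROL. The log2 fold change was -0.53 ± 0.34 (SE; edgeR adjusted p = 0.248). Its sign turned under TMM scaling, to 0.30 ± 0.26 (SE; edgeR adjusted p = 0.433). Under ERCC scaling 55.5% of genes had a lower fold change than Tbpl1.

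Tbpl2, the oocyte paralog, was near the limit of detection in these embryos. Its reads ranged from 0 to 12 with a median of 3 in TBP LOF and from 0 to 10 with a median of 3 in CONTROL. At least 1 read was found in 7 of 9 LOF embryos (77.8%, 95% exact Clopper-Pearson interval 39.99 to 97.2%) and in 6 of 9 CONTROL embryos (66.7%, interval 29.9 to 92.5%). A two-sided Fisher's exact test of these shares gave p = 1, and the intervals are wide. Mean normalised counts were 3.71 ± 3.12 (SD, n = 9) in LOF and 3.11 ± 3.01 (SD, n = 9) in CONTROL. The log2 fold change of 0.19 ± 0.79 (SE; edgeR adjusted p = 0.892) was smaller than its own error. Under TMM scaling it was 0.99 ± 0.76 (SE; edgeR adjusted p = 0.360), and with DESeq2 size factors 1.04 ± 0.76 (SE; edgeR adjusted p = 0.335). Under ERCC scaling it was -0.11 without LOF embryo 9. That embryo had the most Tbpl2 reads and the fewest Tbp reads of its group. A count of 0 allows up to 3 reads at the same depth, so a difference in embryos without a read was not detectable. These limits cover counting error only, since the reads carry no molecular identifiers that were counted.

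The balance within the family was read from ratios inside each embryo, which need no scaling between embryos. In CONTROL embryos of the TBP experiment there were between 3.19 and 10.2 Tbp reads per Tbpl1 read, with a median of 5.86. In TBP LOF the ratio ranged from 0.487 to 6.18 with a median of 1.78. LOF embryos 1, 2, 9 and 11 had fewer Tbp than Tbpl1 reads, which no CONTROL embryo had, whereas LOF embryos 6, 7 and 8 lay inside the CONTROL range. The mean log2 ratio was 0.75 ± 1.39 (SD, n = 9) in LOF and 2.62 ± 0.48 (SD, n = 9) in CONTROL. The difference of -1.87 passed an exact permutation test, two-sided, at p = 0.00165 (0.00329 after adjustment over 4 ratio tests), and 8 of 9 LOF embryos were below the CONTROL median. Tbp was likewise set against the summed reads of the 16 TFIID TAF genes. The mean log2 ratio was -4.49 ± 1.08 (SD, n = 9) in LOF and -2.85 ± 0.26 (SD, n = 9) in CONTROL, a difference of -1.65 with all 9 LOF embryos below the CONTROL median (exact permutation p = 8.23e-05; adjusted p = 0.000329). The smallest p that this design allows is 4.11e-05.

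**Figure D2:**
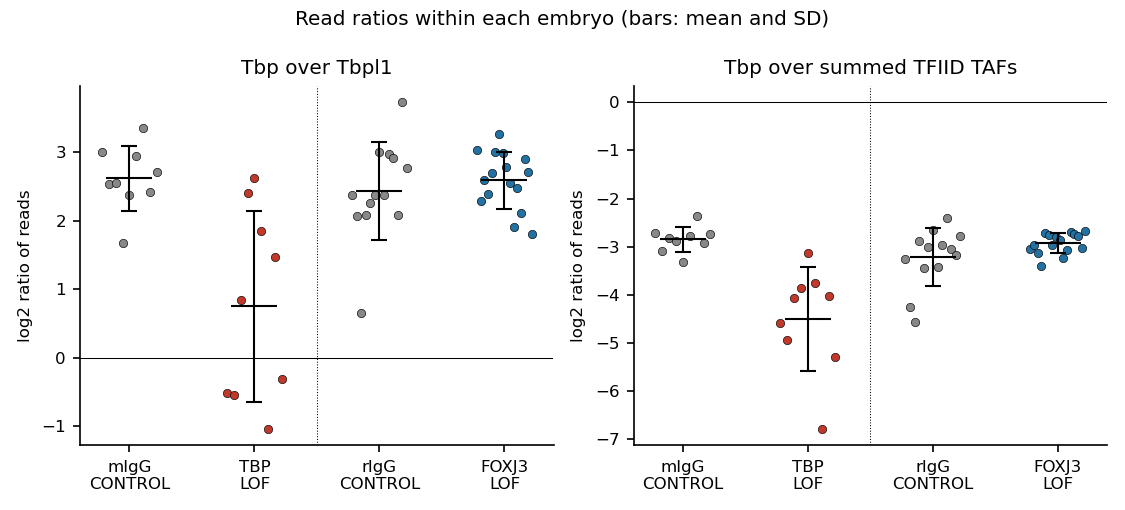
Log2 ratio of Tbp reads to Tbpl1 reads (left) and to the summed reads of the 16 TFIID TAF genes (right) in each embryo, with 0.5 read added to each term. Bars give the mean and SD of each group. TBP LOF embryos spread from -1.04 to 2.63 on the left and from -6.78 to -3.12 on the right, and the FOXJ3 groups overlap in both plots.

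As a share of all reads of the family, Tbp held 85.0% ± 4.03 (SD, n = 9) in mIgG CONTROL and 58.3% ± 22.3 (SD, n = 9) in TBP LOF. Tbpl1 held 14.2% ± 4.29 (SD, n = 9) and 36.5% ± 18.5 (SD, n = 9), and Tbpl2 held 0.84% ± 0.80 (SD, n = 9) and 5.17% ± 9.42 (SD, n = 9). In LOF embryo 9 Tbpl2 held 30% of the family's reads. In the FOXJ3 experiment the Tbp share was 84.6% ± 3.73 (SD, n = 16) in LOF and 81.9% ± 9.56 (SD, n = 13) in CONTROL. Tbp thus took most of the family's reads on average in all 4 groups, and its share varied most between embryos of TBP LOF.

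Levels per length depended on the transcript model. The annotated exons of Tbp add up to 13576 bases, because an alternative last exon of 11676 bases is included, while its first-listed transcript has 1891 bases. Per kb of all annotated exons, Tbp had 10.9 ± 3.68 RPM in mIgG CONTROL, Tbpl1 7.21 ± 2.01 and Tbpl2 1.02 ± 0.92 (SD, n = 9 each). Per kb of the first-listed transcript, Tbp had 78.5 ± 26.4, Tbpl1 19.7 ± 5.50 and Tbpl2 1.02 ± 0.92 (SD, n = 9 each). The order of levels in CONTROL was Tbp, Tbpl1, Tbpl2 on both scales, with Tbp and Tbpl1 apart by about 1 SD of Tbp per kb of exons. In TBP LOF the order of the first pair turned with the scale. Per kb of exons Tbp had 3.86 ± 2.62 and Tbpl1 7.62 ± 3.47, and per kb of the first-listed transcript Tbp had 27.7 ± 18.8 and Tbpl1 20.9 ± 9.49 (SD, n = 9 each), so the order of these neighbours is not settled. Because 5' reads come from transcript starts, length is an imperfect divisor for either scale.

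Across the 4 groups, Tbp was at a similar level in both kinds of CONTROL. In RPM it was 158 ± 73.3 (SD, n = 13) in rIgG CONTROL and 157 ± 27.7 (SD, n = 16) in FOXJ3 LOF, beside 148 in mIgG CONTROL. Tbpl1 was at 23.6 ± 6.57 (SD, n = 9) in mIgG CONTROL, 24.9 ± 11.3 (SD, n = 9) in TBP LOF, 27.3 ± 9.81 (SD, n = 13) in rIgG CONTROL and 26.7 ± 10.3 (SD, n = 16) in FOXJ3 LOF, less apart than the spread in any group. Tbpl2 was between 1.40 and 2.40 RPM on average in every group. The embryo-to-embryo spread of Tbp, in normalised counts, was 65.9% of the mean in TBP LOF, 44.0% in mIgG CONTROL, 39.6% in rIgG CONTROL and 11.03% in FOXJ3 LOF. Counting alone would give 11.6%, 6.13%, 5.80% and 5.76%. For Tbpl2 the spread ranged from 84.1% to 140% of the mean, where counting alone would give 48.4% to 64.9%.

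Depletion of FOXJ3, a forkhead factor, was the second Trim-Away experiment and shows the family under the same kind of injections with another target. The mean mCherry-Trim21 level was 514 RPM in FOXJ3 LOF and 1136 in its CONTROL. Tbp, Tbpl1 and Tbpl2 were not called in this experiment. TMM-normalised Tbp counts were between 260 and 384 with a median of 327 in FOXJ3 LOF and between 98.8 and 550 with a median of 288 in CONTROL. CONTROL embryos 2 and 3 of batch 1 were lowest, at 115 and 98.8. The log2 fold change of Tbp was 0.10 ± 0.17 (SE; edgeR adjusted p = 0.972 with batch in the model). That of Tbpl1 was 0.02 ± 0.19 (SE; edgeR adjusted p = 0.997) and that of Tbpl2 -0.27 ± 0.62 (SE; edgeR adjusted p = 0.984). Tbpl1 counts ranged from 34.1 to 100.2 with a median of 49.4 in LOF and from 25.3 to 73.8 with a median of 52.6 in CONTROL. Tbpl2 had a read in 14 of 16 LOF embryos (87.5%) and in 9 of 13 CONTROL embryos (69.2%), with p = 0.364 by Fisher's exact test. That test pooled the 2 batches. In this experiment 0.0102% of the 19517 genes and TE families tested were called in either direction.

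Within FOXJ3 batches the values had opposite signs, none past the threshold for a single gene. Tbp was at 0.28 in batch 1 and -0.10 in batch 2, Tbpl1 at -0.23 and 0.38, and Tbpl2 at -0.51 and 0.08 (log2 fold changes; lowest adjusted p = 0.825, edgeR). The log2 ratio of Tbp to Tbpl1 reads was 2.59 ± 0.42 (SD, n = 16) in FOXJ3 LOF and 2.44 ± 0.72 (SD, n = 13) in CONTROL. The difference weighted over batches was 0.17 (permutation test within batches, p = 0.445; adjusted p = 0.445). It was 0.66 in batch 1 (exact permutation test, adjusted p = 0.0154) and -0.45 in batch 2 (exact permutation test, adjusted p = 0.122), so the relation did not hold across batches. Without CONTROL embryo 3 of batch 1, which had the lowest ratio, the batch 1 difference was 0.42 (exact permutation test, adjusted p = 0.0450). Against the TFIID TAFs, the log2 ratio was -2.93 ± 0.21 (SD, n = 16) in LOF and -3.22 ± 0.61 (SD, n = 13) in CONTROL, a difference of 0.30 (permutation p = 0.0668; adjusted p = 0.0891).

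The 2 depletions were then compared with each other in 1 model over all 47 embryos, in which no control is shared. Both experiments were scaled to ERCC in this model, whereas the FOXJ3 fold changes above are under TMM scaling. Under ERCC scaling the FOXJ3 log2 fold change of Tbp was 0.30 ± 0.24 (SE; edgeR adjusted p = 0.963). The effect on Tbp was lower by 2.45 log2 units in the TBP experiment than in the FOXJ3 experiment (log2 difference -2.45 ± 0.44, SE; edgeR interaction term, adjusted p = 1.49e-05). For Tbpl1 the difference was -0.74 ± 0.42 (SE; edgeR adjusted p = 0.193) and for Tbpl2 0.19 ± 1.05 (SE; edgeR adjusted p = 0.926). Of 19657 features tested, 28.1% had a significantly lower effect in the TBP experiment. The sign for Tbpl1 turned under TMM scaling, to 0.12, whereas Tbp stayed at -1.53 (edgeR adjusted p = 0.00164). Tbpl2 was then at 1.06 ± 1.01 (SE; edgeR adjusted p = 0.485).

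The genes whose products work with TBP were taken as 5 lists with 35 genes in all. In TBP LOF, 17 of 35 were lower and 1 was higher, that is 48.6% lower beside 29.7% of all features. Under TMM scaling 13 of 35 were lower and 10 higher, beside 12.7% and 12.8% of all features. All 12 partners that serve RNA polymerase I or III promoters or the snRNA genes were lower, against 5 of the 23 that serve RNA polymerase II promoters or regulate TBP. No test of the lists against other genes was run.

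SL1 is the selectivity factor of RNA polymerase I, and all 4 of its TAF genes fell, where 29.7% of all features did. Taf1a was at 36.5 ± 24.8 normalised counts in LOF and 161 ± 61.5 in CONTROL (SD, n = 9 each), a log2 fold change of -2.17 ± 0.36 (SE; edgeR adjusted p = 3.00e-06). Taf1c was at 2.44 ± 3.32 and 23.5 ± 9.92 (SD, n = 9 each), a log2 fold change of -3.46 ± 0.62 (SE; edgeR adjusted p = 1.15e-05). In every LOF embryo Taf1a, Taf1b, Taf1c and Taf1d were below the CONTROL median. So was Taf13, a TFIID TAF gene that was not called (log2 fold change -0.22, edgeR adjusted p = 0.617). The share of all features with this pattern was not counted. The median log2 fold change of the list was -2.20 under ERCC scaling and -1.43 under TMM scaling, where all 4 were again called lower beside 12.7% of all features.

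TFIIIB recruits RNA polymerase III, and SNAPc, which works with TBP, recognises the promoters of snRNA genes. All 8 genes of this list fell, where 29.7% of all features did, with log2 fold changes from -2.60 to -1.29 and a median of -1.80 beside -0.70 for all genes. Snapc5, a small SNAPc subunit, went from 213 ± 107 in CONTROL to 35.2 ± 22.2 normalised counts in LOF (SD, n = 9 each), with a log2 fold change of -2.60 ± 0.37 (SE; edgeR adjusted p = 1.38e-07). Brf2, the TFIIIB subunit used at snRNA-type promoters, went from 138 ± 72.03 to 30.2 ± 14.05 (SD, n = 9 each), with a log2 fold change of -2.20 ± 0.35 (SE; edgeR adjusted p = 1.75e-06). Under TMM scaling 7 of the 8 were called lower, beside 12.7% of all features, and Brf1 had a log2 fold change of -0.57 (edgeR adjusted p = 0.332). Under ERCC scaling the call of Brf1 was also lost without LOF embryo 7 or 9 or without CONTROL embryo 3, 8 or 10, with log2 fold changes from -1.21 to -1.07 (edgeR adjusted p from 0.0586 to 0.105).

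Of the 16 TFIID TAF genes, Taf7, Taf8, Taf9 and Taf11 were lower, Taf12 was higher and 11 did not pass the test, with a list median of -0.31. The 25% that were lower are close to the 29.7% of all features. Taf8, which helps to assemble the TFIID core, went from 65.3 ± 17.8 in CONTROL to 13.4 ± 5.05 normalised counts in LOF (SD, n = 9 each), a log2 fold change of -2.30 ± 0.35 (SE; edgeR adjusted p = 7.12e-07). Taf9, a histone-fold TAF, had a log2 fold change of -1.56 ± 0.32 (SE; edgeR adjusted p = 9.13e-05). Taf12, another histone-fold TAF, went from 74.8 ± 25.5 to 138 ± 64.2 (SD, n = 9 each), a log2 fold change of 0.88 ± 0.31 (SE; edgeR adjusted p = 0.0222). Under TMM scaling 2 TAFs, Taf8 and Taf9, were called lower and 7 higher, and the list median turned to 0.55. The share of TAFs lower was then 12.5%, beside 12.7% of all features. Of all 35 partner genes, 12 were negative under ERCC scaling and positive under TMM scaling. The fall of Taf8 and Taf9 and the rise of Taf12 were called under both. The call of Taf12 under ERCC scaling was lost without LOF embryo 10, where its log2 fold change was 0.67 (edgeR adjusted p = 0.0855).

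Taf4b, Taf9b, Taf7l and Gtf2a1l, which are related to other TAFs or to TFIIA, were not called in TBP LOF under ERCC scaling, where 29.7% of all features were lower and 1.34% higher. Taf4b, a gonadal TAF, had 133 ± 67.8 normalised counts in LOF and 175 ± 92.5 in CONTROL (SD, n = 9 each), a log2 fold change of -0.40 ± 0.33 (SE; edgeR adjusted p = 0.400), and 0.42 under TMM scaling (edgeR adjusted p = 0.222). Taf9b had a log2 fold change of 0.69 ± 0.43 (SE; edgeR adjusted p = 0.233), and 1.41 under TMM scaling (edgeR adjusted p = 0.00629). Taf7l, a TAF of male germ cells, and Gtf2a1l, a TFIIA subunit of germ cells, were at the edge of detection, with means of 1.16 and 2.90 in LOF and 0.90 and 3.89 in CONTROL. Their log2 fold changes were 0.24 ± 1.07 (SE) and -0.26 ± 0.80 (SE), within error. That of Gtf2a1l turned to 0.86 under TMM scaling (edgeR adjusted p = 0.453).

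The remaining partners of TBP at RNA polymerase II promoters were TFIIA and TFIIB and 3 regulators. Of the 4 TFIIA and TFIIB genes, which stabilise TBP on DNA and bring in the polymerase, 0 were called by edgeR, 0 had an unadjusted p under 0.05 and 0 were called by DESeq2, where 29.7% of all features were lower and 1.34% higher by edgeR. Their log2 fold changes were between -0.26 and 0.10, and under TMM scaling Gtf2a1, Gtf2a2 and Gtf2b were called higher, 3 of 4 beside 12.8% of all features, with a list median of 0.85. Dr1, a subunit of the NC2 complex that blocks TBP, had a log2 fold change of -1.21 ± 0.31 (SE; edgeR adjusted p = 0.00170), and -0.40 under TMM scaling (edgeR adjusted p = 0.168). Drap1, its partner in NC2, was low, with 8.59 ± 8.37 in LOF and 6.21 ± 6.65 in CONTROL (SD, n = 9 each), and had a log2 fold change of 0.46 ± 0.65 (SE). Btaf1, the ATPase that removes TBP from DNA, had a log2 fold change of -0.49 ± 0.34 (SE; edgeR adjusted p = 0.304), and 0.27 under TMM scaling (edgeR adjusted p = 0.469).

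In the FOXJ3 experiment 0 of the 35 partner genes were called by edgeR and 0 by DESeq2, and 3 had an unadjusted p under 0.05, namely Taf6, Taf13 and Bdp1, where 5.81% of all features had one. In the model of both experiments 17 of the 35 had a lower effect in TBP LOF than in FOXJ3 LOF, that is 48.6% beside 28.1% of all features, and 0 a higher one. This model holds the same TBP embryos as the counts above and is no separate evidence. Taf12 was not called in it, with a log2 difference of 0.92 ± 0.39 (SE; edgeR adjusted p = 0.0612). Under TMM scaling 13 of 35 had a lower effect and 4 a higher one, beside 13.2% and 8.31% of all features.

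**Figure D3:**
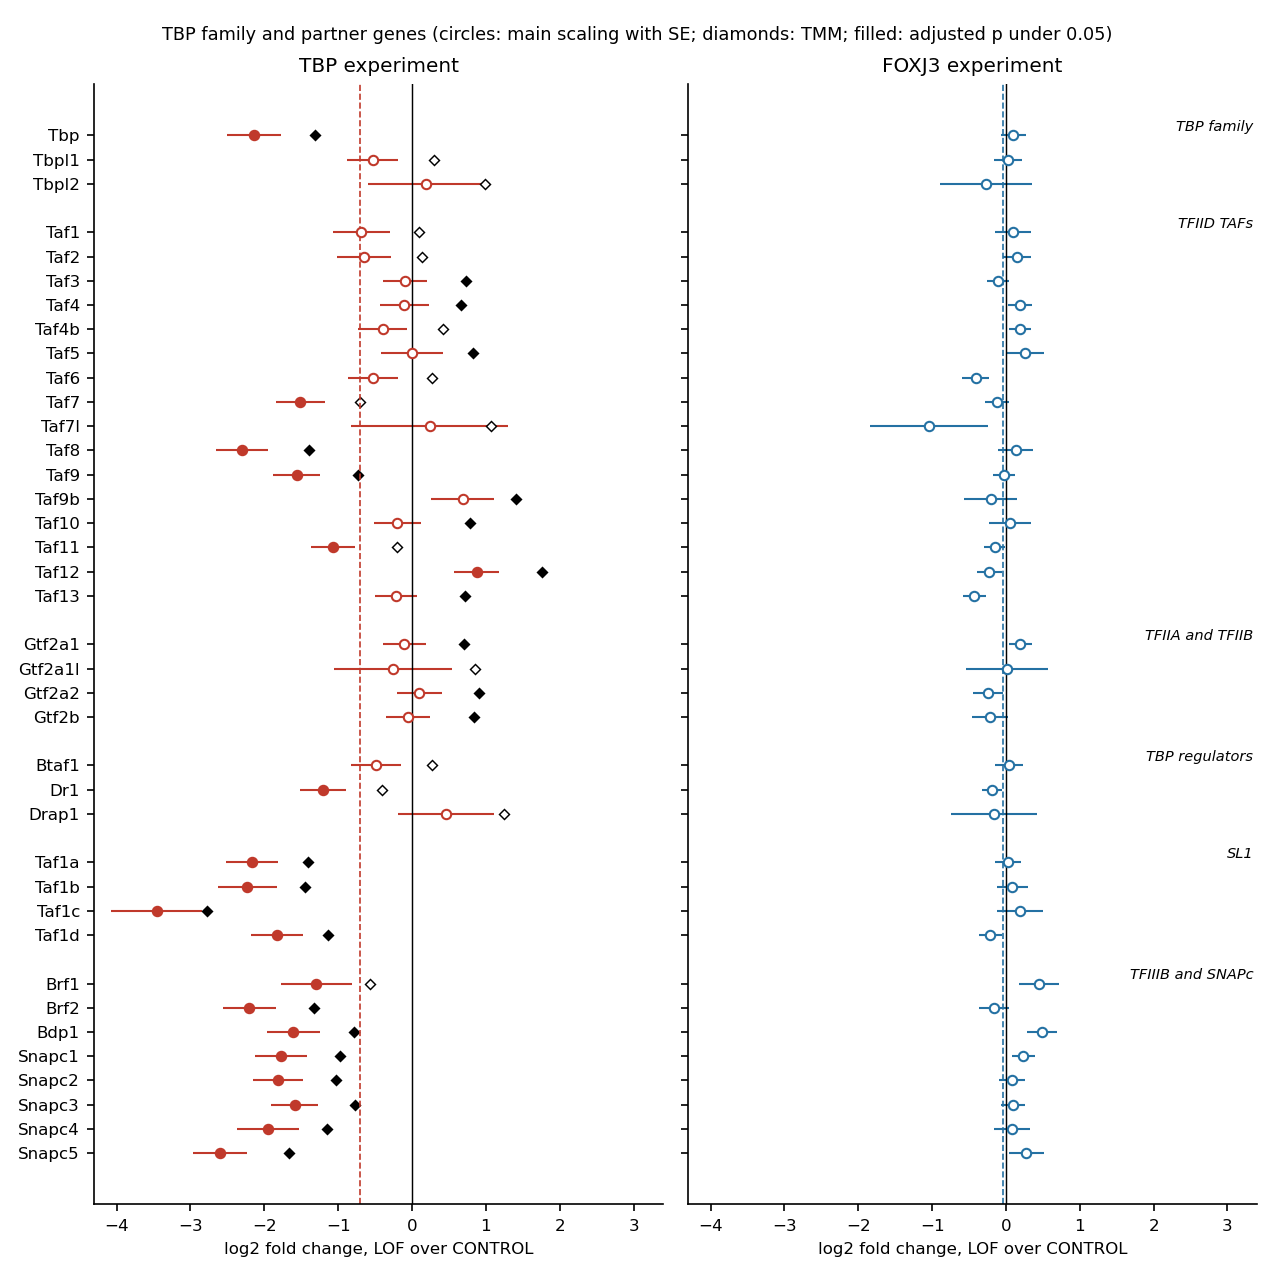
Log2 fold change of LOF over CONTROL for the 3 members and 35 partner genes in the TBP experiment (left) and the FOXJ3 experiment (right). Circles are the main scaling (ERCC on the left, TMM on the right) with the SE as whiskers, diamonds are TMM scaling, filled symbols have an adjusted p under 0.05, and the dashed line is the median of all genes. All 12 SL1, TFIIIB and SNAPc genes lie left of the dashed line in the TBP experiment, between -3.46 and -1.29.

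The Tbp locus is crowded, and its 3 neighbours were called lower, as were 29.7% of all features. Pdcd2, a gene with a role in ribosomal protein handling, lies on the opposite strand wholly inside the longest Tbp exon (chr17:15516704-15528379). It went from 90.8 to 16.01 normalised counts on average, a log2 fold change of -2.49 ± 0.38 (SE; edgeR adjusted p = 6.48e-07). Psmb1, a proteasome subunit gene, starts on the other strand 136 bases from the Tbp start and had a log2 fold change of -1.70 ± 0.33 (SE; edgeR adjusted p = 3.34e-05). Prdm9, the meiotic recombination factor, had one of -1.55 ± 0.48 (SE; edgeR adjusted p = 0.00960). Whether the counting used strand is stated in no source used here, so Tbp and Pdcd2 reads in the shared stretch cannot be told apart. In FOXJ3 LOF the 3 neighbours had log2 fold changes of 0.30, 0.11 and -0.02. Around the paralogs, Slc2a12, a sugar transporter gene that overlaps the end of Tbpl1, had a log2 fold change of -0.12 ± 0.76 (SE), and Hnmt, the histamine methyltransferase gene nearest to Tbpl2, had one of -0.76 ± 0.52 (SE; edgeR adjusted p = 0.288) in TBP LOF. Under TMM scaling these turned to 0.86 and 0.062 (edgeR adjusted p = 0.390 and 0.937), and Prdm9, at -0.72, was no longer called (edgeR adjusted p = 0.212). Their other neighbours, Raet1d and Tcf21 beside Tbpl1 and Il1f8 beside Tbpl2, had 29, 3 and 1 reads in the 47 embryos, and Mir7663 within Tbpl1 had 0.

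**Figure D4:**
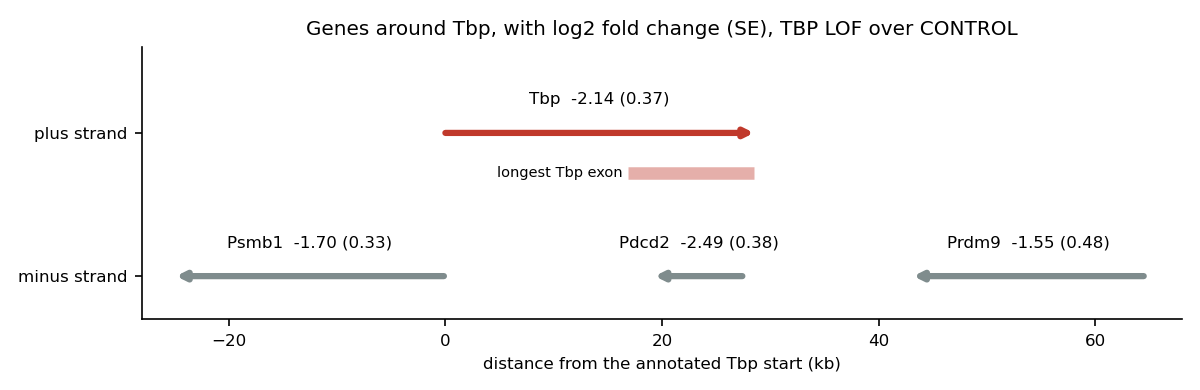
Genes around Tbp by distance from its annotated start in kb, with arrows pointing in the direction of transcription and the log2 fold change (SE) of TBP LOF over CONTROL beside each name. The light bar is the longest annotated Tbp exon, which spans all of Pdcd2. All 4 genes had values between -2.49 and -1.55.

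To see which genes varied with Tbp among embryos of the same group, the mean of each group and batch was removed from log2(normalised count + 1). The remainders were correlated over the 47 embryos. Counts had the scaling of each experiment, ERCC for TBP and TMM for FOXJ3. The spread of Tbp ranged from 11.03% of the mean in FOXJ3 LOF to 65.9% in TBP LOF, so the groups do not weigh equally. Values of r within single groups are not given. The 5 genes most like Tbp were Ska1 (r = 0.92), Ppat (0.91), Bzw1 (0.91), Nop2 (0.91) and Nip7 (0.91). The median r over the 9107 other genes compared was 0.26 and the 95th percentile 0.75, so much of this variation was shared by many genes in the same libraries. These 5 genes had log2 fold changes between -1.999 and -1.36 in TBP LOF and between 0.0049 and 0.15 in FOXJ3 LOF. The median of all genes in TBP LOF was -0.70. Under TMM scaling the 5 genes were between -1.18 and -0.53 in TBP LOF, and Bzw1 was not called (edgeR adjusted p = 0.0741). For Tbpl1 the most similar were Cdk8 (r = 0.64), Phf3 (0.63), Tex10 (0.62), Ube2h (0.62) and Arl15 (0.61), beside a median of 0.16 and a 95th percentile of 0.42. In TBP LOF Tex10 was called lower, at -2.20 (edgeR adjusted p = 2.12e-06). The others of this set were not called and lay between -0.81 and -0.58. Tbp and Tbpl1 had r = 0.38 with each other. Tbpl2 was too low for this measure.

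The stage was checked with fixed marker lists. All 6 late 2-cell genes had reads in every group, and their summed level was 254 to 430 RPM in TBP LOF and 89.9 to 272 in CONTROL. The 10 oocyte genes, which include stored maternal transcripts, summed to 1889 to 3420 in TBP LOF and 787 to 2355 in CONTROL, and 1 of them, Zp3 of the egg coat, was called, with a log2 fold change of -1.83 (edgeR adjusted p = 2.29e-05). Of the late 2-cell genes Usp17lc was called, at 1.38 (edgeR adjusted p = 0.00515). The other 5 were not called and ranged from -1.24 for Zscan4c to 0.52 for Zfp352. In the oocyte list Oosp1 had the highest mean normalised counts, 2572 in LOF and 2452 in CONTROL, so that sum leans on 1 gene. The 10 cumulus cell genes summed to 10.9 to 40.01 in TBP LOF and 19.4 to 73.9 in CONTROL. Ptx3, Has2 and Fshr had no read in the TBP experiment, and Amhr2 and Tnfaip6 were called lower, at -1.18 and -2.46, though not under TMM scaling. The higher sums of late 2-cell and oocyte transcripts hold for RPM. Under the ERCC scaling used for Tbp, the late 2-cell genes had a median log2 fold change of 0.20 with 1 of 6 called higher, and the oocyte genes one of 0.089 with Zp3 as the 1 gene of 10 called, beside 29.7% of all features lower and 1.34% higher. The 2 cumulus cell genes called lower were 40% of the 5 tested. Under TMM scaling, where 12.7% of all features were lower and 12.8% higher, 3 of 6 late 2-cell genes were higher with a median of 0.97. Of the 10 oocyte genes 6 were then higher and 1 lower with a median of 1.00, and of the 5 cumulus cell genes Foxl2 was higher and 0 were lower. The part of these levels in the Tbp result was not tested.

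Among the 10 alternative settings tried in TBP LOF, Tbp was called lower in each. The setting with TElocal gene counts held identical gene values and could not move its fold change. Tbpl1 was called in 0 of 10, and Tbpl2 in 0 of the 9 in which it was tested.

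**Figure D5:**
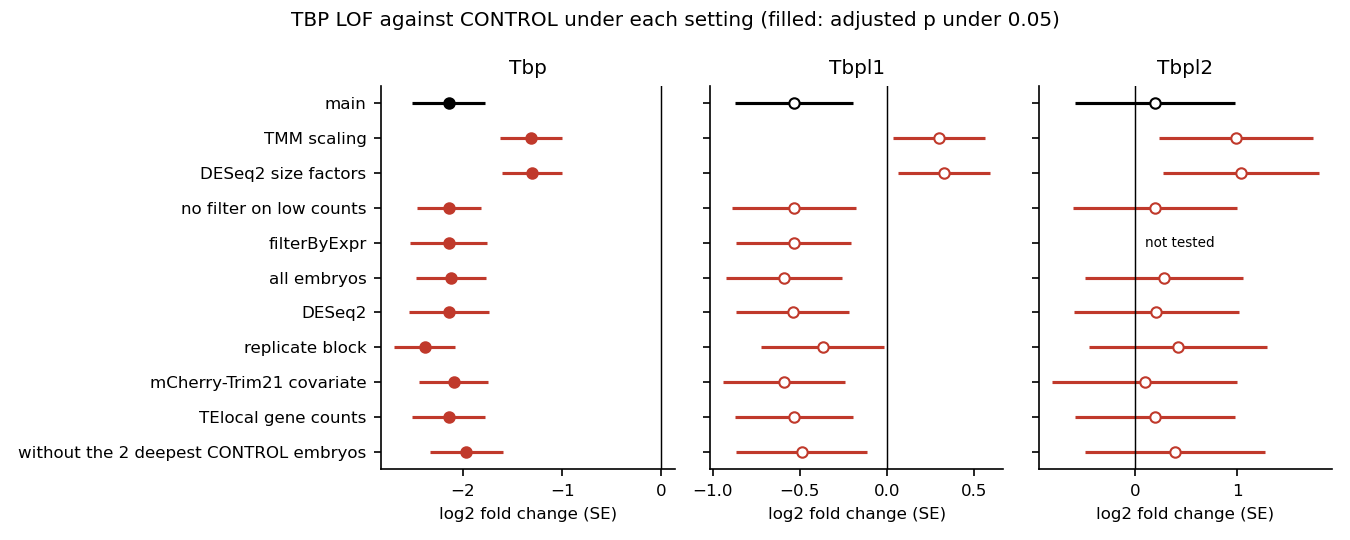
Log2 fold change (whiskers: SE) of Tbp, Tbpl1 and Tbpl2 in TBP LOF over CONTROL under the main setting (black) and 10 alternatives, with filled points for an adjusted p under 0.05. Tbp stays between -2.38 and -1.31 and filled throughout, Tbpl1 crosses 0 with TMM scaling and DESeq2 size factors, and the whiskers of Tbpl2 cross 0 except with those 2 scalings.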

How the data were processed

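Values came from the deposited tables of reads per gene and TE family. The authors checked reads with FASTQC, trimmed them with Trimmomatic, separated 5' reads, mapped them with STAR 2.7.11a (submitters' processing notes) to GRCm38 with the mCherry-Trim21 construct added and endogenous Trim21 masked, kept read 2 and counted with TEcount on gencode M20. The deposited unit is an estimated count (expected count) without normalization. All values were whole numbers. The strand setting and the handling of reads with several hits are stated in no source used here. For 19 TBP-experiment embryos, gene values in a second table, made with TElocal, were identical in all 1041922 comparisons.

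Symbols were matched through GENCODE M21 for 54723 of 54838 genes. Promoter sequences are from RefSeq. Embryos with at least 500000 counted reads, 1000 detected genes, and at most 10% mitochondrial and 15% ERCC reads were kept (47 of 49). Features with a read in at least 25% of embryos were tested with edgeR 4.0.16 in R 4.3.3 (quasi-likelihood, Benjamini-Hochberg, threshold 0.05), with size factors from 42 ERCC transcripts in the TBP experiment and a batch term in the FOXJ3 experiment, as in the study's DESeq2 designs. The FOXJ3 experiment was scaled by TMM here, with DESeq2 size factors as an alternative. The model of both experiments used ERCC size factors within each experiment. SEs were taken from the log2 fold change and its F statistic. Ratios used 0.5 read added to each term, an exact permutation test in the TBP experiment and 100000 resamples within batches in the FOXJ3 experiment. DESeq2 1.42.0 was an alternative. The main edgeR fits of the TBP experiment, the FOXJ3 experiment and both together were tested on simulated data. The alternative settings were not.

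Named genes were the 3 members in every comparison. Beyond them, each list gave the 2 called genes ranked first by adjusted p, lower and higher apart, with Taf4b, Taf7l, Taf9b, Gtf2a1l, Btaf1, Dr1 and Drap1 always named. Nearest and overlapping genes and the 5 genes most like each member with a mean of at least 10 normalised counts completed the rule. Taf1b, Taf1d, Taf6, Taf7, Taf11, Taf13, Bdp1, Brf1, Gtf2a1, Gtf2a2, Gtf2b, Foxl2, Zscan4c, Zfp352 and Oosp1 were named in addition after their values were seen. The members and lists were chosen with earlier results of these data known.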

Additional observations from a re-analysis of the deposited data

Results flagged for a closer look

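The effect of depletion on Tbp differed between the experiments, by -2.45 log2 units with both scaled to ERCC (edgeR interaction term, adjusted p = 1.49e-05). In RPM 9 of 9 TBP LOF embryos and 9 of 16 FOXJ3 LOF embryos lay below the median of their CONTROL. With the scaling of each experiment, ERCC for TBP and TMM for FOXJ3, these were 9 of 9 and 3 of 16. How many of all features reach such numbers was not counted.

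In FOXJ3 CONTROL, embryo 3 of batch 1 stood apart from the other embryos of its batch in both the family and its balance. Its normalised Tbpl2 count of 23.9 was the highest of the group, and its log2 ratio of Tbp to Tbpl1 reads of 0.66 was the lowest. In FOXJ3 LOF, embryo 9 of batch 1 had a normalised Tbpl2 count of 13.2, far above the others of its batch. These were 3 flags in 30 groups tested for a sample far from the rest, where chance flags about 1 in 20.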

How the results depend on the processing

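Tbp kept its direction and its call in TBP LOF under all 10 alternatives, between -2.38 and -1.31, and without each embryo in turn, between -2.32 and -1.96. The TElocal alternative has the same gene values and is no separate check. The cause of the changes below was not tested. In TBP LOF, Tbpl1 was at 0.30 with TMM and 0.33 with DESeq2 size factors, and Tbpl2 at 0.99 and 1.04. The number of higher partner genes rose to 10 with each of these scalings. The median of all genes rose from -0.70 to at most 0.15 with these scalings, and called features moved from 5758 lower and 259 higher to as few as 2444 lower and as many as 2601 higher. In the difference between experiments, TMM scaling put Tbpl1 at 0.12 and called 4 partner genes higher, and edgeR's filterByExpr or the use of all embryos called 1. In FOXJ3 LOF, batch 2 alone gave -0.10 for Tbp and 0.082 for Tbpl2, batch 1 alone gave -0.23 for Tbpl1, and ERCC scaling gave 0.0046 for Tbpl2. The FOXJ3 difference in the log2 Tbp to Tbpl1 ratio was 0.66 in batch 1, -0.45 in batch 2 and 0.42 in batch 1 without CONTROL embryo 3, an alternative chosen after seeing the data, as was leaving out the deepest CONTROL embryos.

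Leaving out 1 embryo at a time, Tbpl2 in TBP LOF ranged from -0.11 (without LOF embryo 9) to 0.49, and the higher partner genes numbered 0 (without LOF embryo 10, where Taf12 was lost) or 1. In FOXJ3 LOF, Tbpl1 ranged from -0.050 to 0.075, Tbpl2 from -0.60 to 0.38 (without CONTROL embryo 3 of batch 1), and the log2 Tbp to TAF ratio from 0.20 to 0.37, passing the threshold without CONTROL embryo 4 or 7 of batch 1 or 3 of batch 2 (lowest adjusted p = 0.0263, permutation test). No pairing by embryo number was seen, as correlations of same-numbered embryos ranged from -0.20 to 0.27 and 0 of 19 matched best. The check looks for a single best partner, so it could not exclude pairing or a shared collection round. With the replicate block the log2 fold change of Tbp was -2.38 in TBP LOF, and the paired difference in its log2 ratio to Tbpl1 was -2.13. No call on the members changed. The edgeR filterByExpr rule left Tbpl2 untested. Tbpl2 had at most 21 reads in an embryo, so its values are imprecise. Its spread between embryos was also larger than counting alone would give.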

Other observations

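Among FOXJ3 CONTROL embryos, numbers 2 and 3 of batch 1 had Tbp levels of 55.3 and 40.3 RPM, below those of the other FOXJ3 CONTROL embryos and inside the range of TBP LOF embryos (5.24 to 118 RPM), although they received rabbit IgG. Their counted reads, 2171591 and 2214285, were near the median of their group.

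The log2 ratio of Tbp to TFIID TAF reads was set against the log2 level of mCherry-Trim21 reads in each embryo, as 2 relations. In TBP LOF (n = 9) Pearson's r was 0.075 (exact permutation p = 0.857; adjusted p = 0.857) and Spearman's rho 0.27 (exact permutation p = 0.493; adjusted p = 0.493), and r was -0.23 without the 2 embryos farthest from the median Trim21 level. In CONTROL (n = 9) r was 0.54 (exact permutation p = 0.133; adjusted p = 0.266) and rho 0.52 (exact permutation p = 0.162; adjusted p = 0.324), and r was 0.32 without the 2 farthest embryos.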
